A study of Mus musculus with 2 samples.

Results

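The Reelin signalling pathway was taken as 10 genes: the ligand Reln, its receptors Vldlr and Lrp8, the adaptor Dab1, the kinases Fyn and Src, the adaptors Crk and Crkl, the exchange factor Rapgef1 and the integrin subunit Itga3. The genes were listed by name from the known pathway, with no threshold on their values, and all 10 were found among 42442 mouse genes with a symbol. RNA came from the forebrain of healthy B6NCrl mouse embryos at embryonic day 13.5, with tissue of males and females pooled. The series holds 1 group of 2 libraries of total RNA, each made from 10 ng of RNA with spike-in RNA added. The labels call them biological replicates 1 and 2, from separate tissue samples under 1 donor code, so part of the spread between them may be technical. There is no second condition, so no test was possible, and errors are SDs of the 2 libraries (n = 2).

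Reelin is a large secreted glycoprotein that Cajal-Retzius neurons release at the surface of the developing cortex, where it guides the layering of migrating neurons. It binds the receptors encoded by Vldlr and Lrp8, whose tails hold Dab1, and Fyn and Src then phosphorylate Dab1 on tyrosines. Phosphorylated Dab1 recruits Crk and Crkl, which bring the guanine nucleotide exchange factor encoded by Rapgef1 to the small GTPase Rap1, and the integrin subunit encoded by Itga3 is a further surface partner of Reelin and Dab1.

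Estimated counts came to 35378462 in replicate 1 and to 36793284 in replicate 2. Of the forebrain markers, 8 of 8 stood at 1 TPM or more in both libraries, with a median of 65.4 ± 4.75 TPM, against 0 of 6 caudal neural tube markers and a median of 0.020 ± 0.021 TPM. TPM is the relative abundance of transcripts, normalised for their length. Markers of red blood cells summed to 11848 TPM in replicate 1 and 11140 in replicate 2, and those of endothelium to 70.7 and 75.5 TPM. Both libraries thus held RNA of blood and vessels.

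Several pathway genes have short exons known from neurons or from receptor biology. Some of those exons are printed here because the results on splicing below turn on them. Capitals mark the exon, and lower case marks the 15 bases on either side in the spliced transcript, 5′ to 3′ on the coding strand, from GENCODE M21 transcripts on GRCm38 (mm10). The Reln exon is a microexon near the end of the reading frame (chr5:21891562-21891567, minus strand). The Vldlr exons encode a ligand-binding repeat (chr19:27236240-27236362, plus strand) and the stretch that carries O-linked sugars (chr19:27246593-27246676, plus strand). The Lrp8 exon encodes a proline-rich insert of the cytoplasmic tail that binds JIP scaffold proteins (chr4:107870012-107870188, plus strand). The Dab1 exons are neighbours in the stretch whose tyrosines are phosphorylated (chr4:104680070-104680108 and chr4:104681598-104681663, plus strand). The Fyn exons encode the start of the kinase domain in the FynB form (chr10:39529437-39529601) and the FynT form (chr10:39529919-39530074), both on the plus strand. The Src exon is the insert of the SH3 domain that makes neuronal N1-Src (chr2:157458843-157458860, plus strand).
Reln 6-base exon: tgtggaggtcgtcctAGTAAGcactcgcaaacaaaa
Vldlr 123-base exon: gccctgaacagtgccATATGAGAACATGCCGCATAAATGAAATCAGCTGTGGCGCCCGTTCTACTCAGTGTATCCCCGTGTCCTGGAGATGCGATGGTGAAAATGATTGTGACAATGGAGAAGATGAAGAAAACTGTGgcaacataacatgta
Vldlr 84-base exon: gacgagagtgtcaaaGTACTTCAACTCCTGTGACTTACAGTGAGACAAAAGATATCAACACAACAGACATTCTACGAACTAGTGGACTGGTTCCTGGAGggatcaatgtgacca
Lrp8 177-base exon: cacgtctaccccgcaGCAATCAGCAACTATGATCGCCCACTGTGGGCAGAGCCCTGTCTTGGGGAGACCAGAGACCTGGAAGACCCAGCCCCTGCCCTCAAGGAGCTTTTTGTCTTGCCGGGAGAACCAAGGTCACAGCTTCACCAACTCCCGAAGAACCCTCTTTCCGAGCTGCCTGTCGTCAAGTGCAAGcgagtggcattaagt
Dab1 39-base exon: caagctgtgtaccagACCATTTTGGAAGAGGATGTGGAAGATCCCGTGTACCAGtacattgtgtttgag
Dab1 66-base exon: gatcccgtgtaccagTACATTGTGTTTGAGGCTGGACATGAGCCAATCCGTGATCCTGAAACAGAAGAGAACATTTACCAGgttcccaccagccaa
Fyn 165-base exon: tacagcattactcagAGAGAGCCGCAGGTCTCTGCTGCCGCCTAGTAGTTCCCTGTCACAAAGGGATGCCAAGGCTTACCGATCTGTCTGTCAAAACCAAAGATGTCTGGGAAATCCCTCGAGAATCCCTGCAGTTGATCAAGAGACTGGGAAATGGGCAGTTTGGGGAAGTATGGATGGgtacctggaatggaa
Fyn 156-base exon: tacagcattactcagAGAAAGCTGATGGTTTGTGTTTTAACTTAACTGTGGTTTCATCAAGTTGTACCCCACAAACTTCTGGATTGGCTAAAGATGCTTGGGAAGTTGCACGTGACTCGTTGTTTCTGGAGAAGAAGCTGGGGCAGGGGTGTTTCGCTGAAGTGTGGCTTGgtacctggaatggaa
Src 18-base exon: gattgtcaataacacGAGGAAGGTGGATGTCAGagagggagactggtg

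All 10 pathway genes were present. Each reached 1 TPM in both libraries, where 59.0% of 21473 protein-coding genes did, and 9 of 10 reached 10 TPM, where 38.9% did. Their median was 29.8 ± 0.237 TPM (SD of the library medians). The intracellular adaptors were the most abundant, Crk at 107 ± 6.95 TPM and Dab1 at 86.1 ± 2.14 TPM, and the integrin subunit was the least abundant at 2.64 ± 0.948 TPM. From the highest mean to the lowest the order was Crk, Dab1, Crkl, Fyn, Lrp8, Src, Reln, Vldlr, Rapgef1 and Itga3. Of the 9 neighbouring pairs in that order, only Src and Reln had library values that overlapped. In bulk tissue, fewer cells that make a transcript and less of it per cell cannot be told apart.

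**Figure D1:**
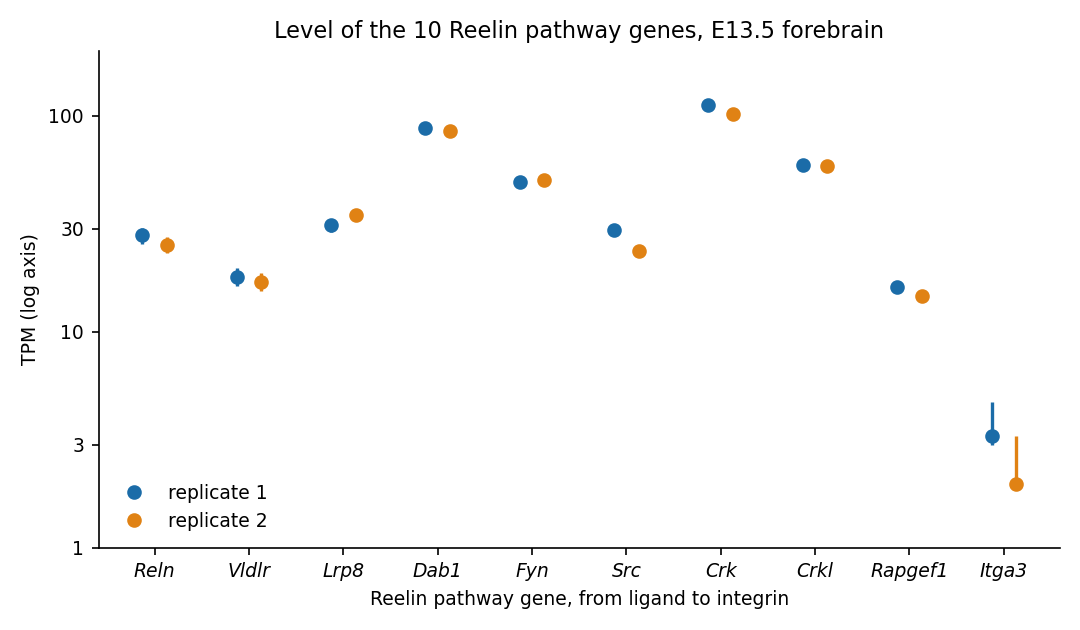
Level of each pathway gene in TPM (log axis), with replicate 1 and replicate 2 as points and the deposited interval bounds, whose level is not stated, as lines. Crk lies above 100 TPM in both libraries, Itga3 at 3.31 TPM or less in both, and the other 8 genes between 14.7 and 87.7 TPM.

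The ligand gene Reln (chr5:21884454-22344702, minus strand, mm10) had 28.0 TPM in replicate 1 and 25.1 in replicate 2, from 3035 and 2973 counts. It stood at percentile 75.0 of the protein-coding genes. In the deposited estimates, most of that TPM was assigned to transcripts not annotated as protein-coding. The transcripts annotated as protein-coding held 9.64 TPM in replicate 1 and 8.66 in replicate 2, or 34.4% of the gene in both. They held 81.9% and 81.8% of the gene's counts, since the full-length transcript Reln-207 is 11699 bases long.

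The leading Reln transcript by TPM was Reln-205, which has no annotated reading frame, 3 exons and 891 bases, and lies at the 3′ end of the gene (chr5:21884895-21896068). It held 44.5% of the gene's TPM in replicate 1 and 44.4% in replicate 2, but 7.22% and 7.205% of the counts. Reln-205 lies within the span of Reln-207, and whether reads of Reln-207 were assigned to it was not tested. Reln-207 followed with 33.9% and 33.8% of TPM, and 80.7% and 80.5% of counts. The retained-intron transcript Reln-203 held 7.59% and 11.1% of TPM, and 7 such transcripts together held 19.2% and 18.1%. Reln was the only pathway gene with under 50% of TPM in protein-coding transcripts in both libraries, which 911 of 12238 protein-coding genes (7.44%) also showed. The median share in protein-coding transcripts was 93.5% over the 10 pathway genes and 98.2% over those 12238 genes.

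**Figure D2:**
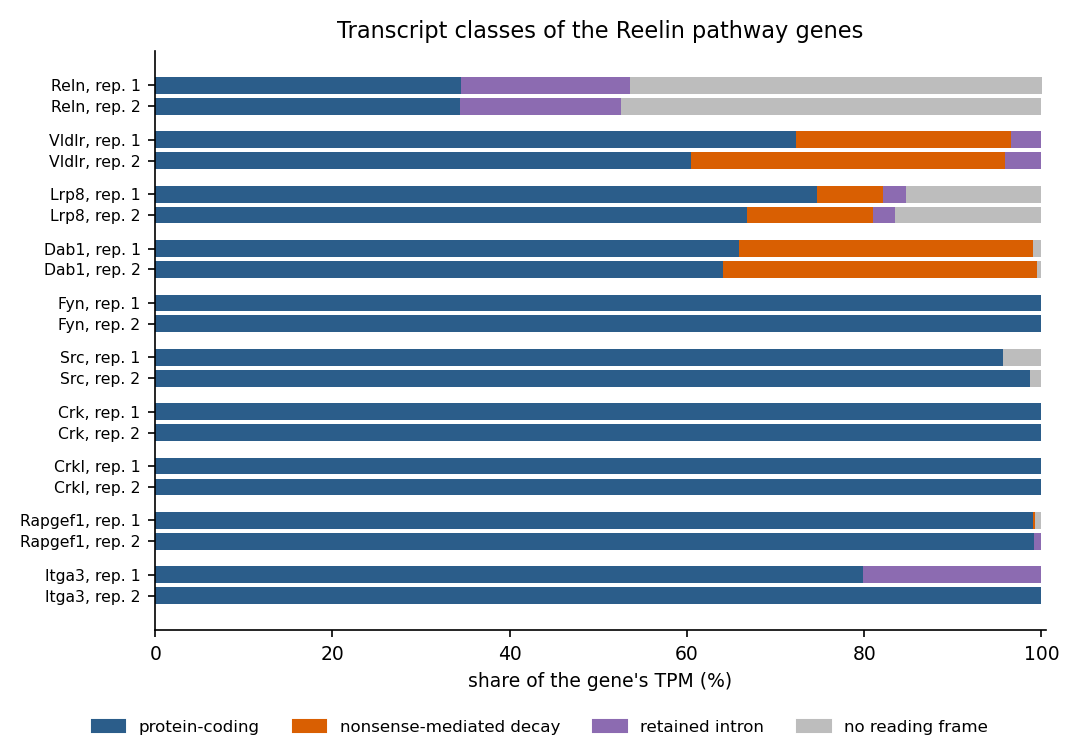
Share of each pathway gene's TPM in 4 classes of annotated transcripts, 1 bar per library. Reln has 34.4% in protein-coding transcripts in both libraries, Vldlr, Lrp8 and Dab1 lie between 60.4% and 74.7%, and Fyn, Crk and Crkl are at or near 100%.

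Inclusion is given here as the summed TPM share of transcripts that hold an exon, in percent of that of all transcripts of the gene spanning it. The 6-base microexon of Reln was in 43.0% and 42.9% of the estimated transcripts that span it. Nearly all of the rest was Reln-205, whose exon there has other boundaries. Among protein-coding transcripts alone the microexon was included at 98.4% in replicate 1 and 98.2% in replicate 2. The exon is therefore close to constant in the Reelin-coding transcripts and intermediate only over the whole gene. A 220-base exon of Reln was included at 81.9% and 75.6%, and a 110-base exon at 92.8% and 94.99%. Among protein-coding transcripts these exons were at 100% in both libraries. Every protein-coding Reln transcript that spans them holds them, so that value was set by the annotation.

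The receptor gene Lrp8 (chr4:107802261-107876840, plus strand), which encodes ApoER2, had 31.1 TPM in replicate 1 and 34.8 in replicate 2. The gene of the other receptor, Vldlr (chr19:27216484-27254231, plus strand), had 17.9 and 17.0 TPM. Lrp8 was higher than Vldlr in both libraries, by 0.88 ± 0.16 on the log2(TPM + 1) scale. By CPM, counts scaled to the library total with no length normalisation, the difference was 1.35.

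The deposited bounds of Lrp8 did not overlap between libraries, with replicate 2 higher. Protein-coding Lrp8 transcripts summed to 23.2 TPM in each library, with opposite changes inside the class. Lrp8-202 had 21.8 TPM in replicate 1 and 23.15 in replicate 2, from 3163 and 3663 counts. Lrp8-201 had 1.44 and 0 TPM. Outside the class, the transcript annotated for nonsense-mediated decay, Lrp8-209, had 2.31 and 4.94 TPM, and those with no reading frame had 4.75 and 5.75 TPM. The leading transcript Lrp8-202 is protein-coding, with an incomplete annotated reading frame or end. It held 70.1% of TPM in replicate 1 and 66.5% in replicate 2. Lrp8-212, with no reading frame, held 14.2% and 16.2%, and Lrp8-209 held 7.43% and 14.2%.

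For Lrp8 the estimates gave mainly transcripts that skip the exons of the longer receptor forms. A 381-base exon that encodes several ligand-binding repeats (chr4:107846239-107846619) was included at 12.9% in replicate 1 and 14.7% in replicate 2. A 123-base exon that encodes another such repeat was included at 22.4% and 31.2%, and the 177-base exon of the proline-rich insert at 14.6% and 17.5%. These inclusion shares rested largely on Lrp8-209 and Lrp8-212. The skipped shares rested largely on Lrp8-202, which starts inside the gene and alone reaches its annotated end (chr4:107830985-107876840). How far that extent of Lrp8-202 sets the skipped shares was not tested. Among protein-coding transcripts the 381-base and 177-base exons were both at 6.20% in replicate 1 and 0 in replicate 2, and that 123-base exon at 0 in both. An exon with alternative starts was used in a 123-base form at 85.4% and 83.5%, and in a 126-base form at 14.6% and 16.5%.

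In Vldlr no transcript led by TPM in both libraries. Vldlr-202 led in replicate 1 with 30.7% of TPM, against 17.6% in replicate 2. Vldlr-201, annotated for nonsense-mediated decay, led in replicate 2 with 35.4%, against 24.2% in replicate 1. Vldlr-207 held 21.1% and 18.6% of TPM, but led by counts in both libraries with 43.9% and 40.7%. Vldlr-206 held 17.6% and 17.2% of TPM. The deposited TPM bounds of Vldlr-202 and of Vldlr-201 overlapped between libraries, so the change of leader by TPM lies within the authors' own intervals.

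The 84-base exon of Vldlr for the O-linked sugar domain was included at 25.6% in replicate 1 and 23.4% in replicate 2. Transcripts without it were thus the more abundant form by TPM in the estimates. The exon is held by Vldlr-207 alone, which led by counts (43.9% and 40.7% of the gene) and alone reaches the gene's annotated end. How far the unit and that extent of Vldlr-207 set the inclusion was not tested. The 123-base ligand-binding repeat exon was included at 58.5% and 72.6%, the widest gap between libraries of any intermediate exon in the pathway genes (14.1 percentage points). Among protein-coding transcripts these 2 exons were at 42.6 ± 5.65% and 49.9 ± 8.51%. A 126-base exon for an EGF-like repeat was included at 82.4% and 82.2%, and a 219-base exon at 75.8% and 63.4%. Skipping of the 126-base exon rested on Vldlr-206 alone, a 774-base transcript with an incomplete annotated reading frame or end. Vldlr-206 held 3.14% of the gene's counts in replicate 1 and 3.22% in replicate 2. Among protein-coding transcripts the 126-base exon was at 72.8 ± 4.05% and the 219-base exon at 100% in both libraries. The latter value was set by the annotation, since every protein-coding transcript that spans the 219-base exon holds it.

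**Figure D3:**
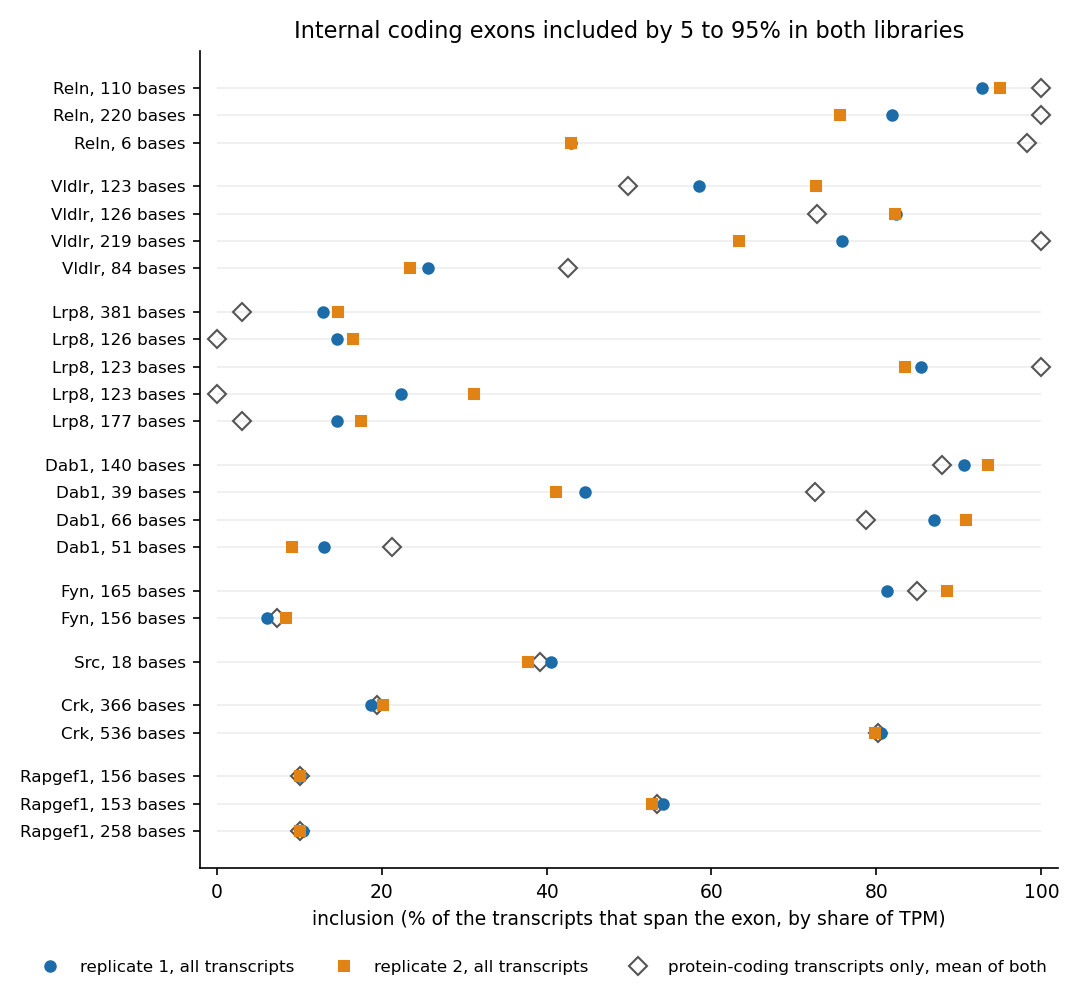
Inclusion of the 24 internal coding exons of the pathway genes with 5 to 95% inclusion in both libraries, in percent of the transcripts spanning each exon, for replicate 1, replicate 2 and, as open diamonds, protein-coding transcripts alone (mean of both libraries). Src, Crk, Fyn and Rapgef1 exons change little when only protein-coding transcripts are counted, whereas all Reln and Lrp8 exons shown and the 219-base Vldlr exon move to within 5% of 0 or 100%.

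The adaptor gene Dab1 (chr4:103619359-104744844, plus strand) had 87.7 TPM in replicate 1 and 84.6 in replicate 2. The ligand Reln lay below it, with a difference (Reln minus Dab1) of -1.66 ± 0.071 on the log2(TPM + 1) scale. The size of that difference depended on the unit: it was -0.80 in CPM and -2.49 over protein-coding transcripts alone. Its direction was the same in each.

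Dab1-207, annotated for nonsense-mediated decay, was the leading Dab1 transcript, with 33.1% of TPM in replicate 1 and 35.4% in replicate 2. The protein-coding Dab1-203 followed with 29.3% and 28.7% of TPM, but led by counts with 57.8% and 56.4%. The deposited TPM bounds of Dab1-207 and Dab1-203 overlapped in replicate 1 and lay apart in replicate 2. Dab1-206, a protein-coding transcript with an incomplete annotated reading frame or end, held 14.3% and 16.3% of TPM. Transcripts of the protein-coding class held 65.9% and 64.0% of Dab1, or 57.8 and 54.2 TPM.

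**Figure D4:**
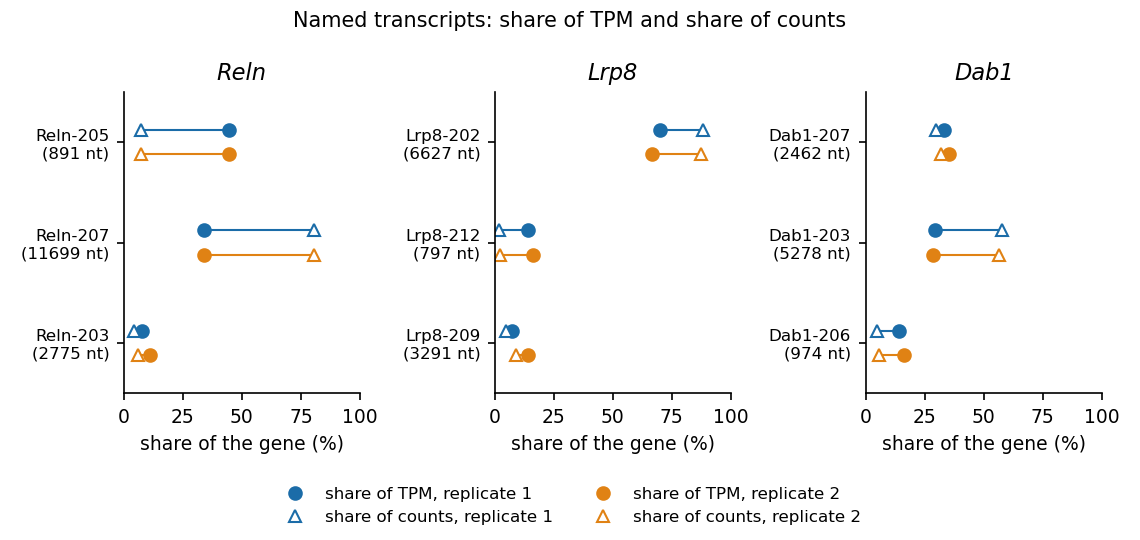
Share of TPM (filled circles) and share of estimated counts (open triangles) of the named transcripts of Reln, Lrp8 and Dab1 in both libraries, with transcript length in nucleotides. Reln-205 has 44.4 ± 0.064% of TPM and 7.21% of counts, and the long Reln-207 the reverse order.

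The 39-base exon of Dab1 was included at 44.6% in replicate 1 and 41.2% in replicate 2, and the neighbouring 66-base exon at 87.0% and 90.9%. Both forms of the phosphorylated stretch were therefore present in the estimates, but the skipped shares rested on few transcripts. Skipping of the 66-base exon rested on Dab1-208 alone, and that of the 39-base exon on Dab1-207 and Dab1-208. Dab1-208 is a 641-base transcript with an incomplete annotated reading frame or end, and held 1.93% and 1.32% of the gene's counts. The leading transcript Dab1-207 holds the 66-base exon and not the 39-base exon. Among protein-coding transcripts the 39-base exon was at 72.5 ± 1.11% and the 66-base exon at 78.8 ± 4.16%. There the skipped shares of both exons came from Dab1-208 alone. For the 39-base exon a further 8.62% in replicate 1 and 14.8% in replicate 2 had another boundary. A 51-base exon, found only in Dab1-208, was included at 13.0% and 9.10%, and a 140-base exon at 90.6% and 93.5%.

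Of the kinase genes, Fyn (chr10:39368855-39565381, plus strand) had 49.4 TPM in replicate 1 and 50.3 in replicate 2. Src (chr2:157418444-157471862, plus strand) had 29.5 and 23.8 TPM. Fyn was higher in both libraries, by 0.89 ± 0.23 on the log2(TPM + 1) scale. The deposited bounds of Src did not overlap, with replicate 1 higher by 1.24-fold in TPM and 1.13-fold in CPM.

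In the estimates Fyn was mainly FynB. The 165-base FynB exon was included at 81.3% in replicate 1 and 88.5% in replicate 2, and the 156-base FynT exon, named for T cells, at 6.12% and 8.44%. The 2 exons, printed above, were identical at 95 of 150 aligned bases (63.3%). The FynB exon is held by Fyn-202 alone, with 77.1% and 83.7% of TPM. Fyn-206 held 11.98% and 2.89%.

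The 18-base exon of neuronal Src was included at 40.6% in replicate 1 and 37.7% in replicate 2, close between libraries although other Src transcripts were not. Src-204 held 45.1% and 24.7% of TPM, Src-202 held 38.8% and 37.2%, and Src-201 held 11.7% and 36.7%. Of these 3 transcripts Src-202 carries the neuronal exon, and Src-204 and Src-201 do not. The exchange between libraries was thus between transcripts without it, and the deposited TPM bounds of each of the 3 overlapped between libraries.

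The Crk gene (chr11:75679259-75706908, plus strand) had 111.6 TPM in replicate 1 and 101.8 in replicate 2, and its bounds did not overlap. Its relative Crkl (chr16:17451987-17487434, plus strand), a gene with 1 annotated transcript, had 59.1 and 58.3 TPM. Crk was higher by 0.85 ± 0.079 on the log2(TPM + 1) scale. The length of the Crkl transcript, 3863 bases in the deposited tables, differs in the newer annotation used here for exons.

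Crk is spliced to CrkII or to the shorter CrkI, which lacks the second SH3 domain. The 536-base form of the exon, for CrkII, was used at 80.5% in replicate 1 and 79.8% in replicate 2, and the 366-base form, for CrkI, at 18.7% and 20.2%. Crk-201, the main CrkII transcript, held 80.2% and 79.5% of TPM, and Crk-203, the main CrkI transcript, held 18.0% and 18.7%. CrkII was thus the main form in both libraries, and the shares differed by under 2 percentage points.

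Rapgef1 (chr2:29619720-29740978, plus strand) had 16.2 TPM in replicate 1 and 14.7 in replicate 2. Rapgef1-206, with an incomplete annotated reading frame or end, held 53.5% and 52.3% of its TPM, and Rapgef1-203 held 35.5% and 36.9%. A 153-base exon of Rapgef1 was included at 54.1% and 52.8%, its 156-base form at 10.1% in both libraries, and a 258-base exon at 10.4% and 10.1%. Each of these shares differed by under 2 percentage points between libraries.

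Itga3 (chr11:95044474-95076801, minus strand) was the lowest and the most variable, with 3.31 TPM in replicate 1 and 1.97 in replicate 2, from 285 and 224 counts. Replicate 1 was higher by 1.68-fold in TPM and by 1.32-fold in CPM, and the deposited bounds overlapped. The estimated mean transcript length was 3976 bases in replicate 1 and 4782 bases in replicate 2. Itga3-201 held 47.4% and 51.6% of TPM, Itga3-203 held 17.8% and 48.4%, Itga3-202 held 14.7% and 0, and the retained-intron Itga3-204 held 10.6% and 0. The deposited TPM bounds of each of these 4 transcripts overlapped between libraries.

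Across the pathway genes, 24 of 183 internal coding exons (13.1%) had 5 to 95% inclusion in both libraries, in 8 genes, where 15.3% of 74023 such exons of protein-coding genes did. With protein-coding transcripts alone the count was 15. Of the 183 exons, 15 (8.20%) were intermediate and skipped by at least 5% in both libraries, where 4.30% of the 74023 exons were. The Lrp8 exons among the 15 were not intermediate in protein-coding transcripts alone, and no background was computed for those transcripts. Skipping of the 126-base Vldlr exon and the 66-base Dab1 exon rested on a short transcript each. The 15 count the 153-base and 156-base forms of a Rapgef1 exon separately and are 14 exons when overlapping forms are counted once. All 15 had a length that is a multiple of 3, from 18 to 381 bases, which keeps the reading frame, as did 47.5% of all internal coding exons of the pathway genes. Among skipped exons of the background 52.6% were multiples of 3. These shares come from transcript estimates for annotated transcripts, not from counts of splice junctions, and 19 of the 24 differed by at most 5 percentage points between libraries.

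When levels were counted in protein-coding transcripts only, the order of the pathway genes was Crk, Crkl, Dab1, Fyn, Src, Lrp8, Rapgef1, Vldlr, Reln and Itga3. The ligand thus stood at rank 9, against rank 7 by gene TPM. Crkl at 58.7 ± 0.573 TPM and Dab1 at 56.0 ± 2.50 TPM exchanged places.

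Pathway genes led some of their protein families and not others. Among 18 lipoprotein receptor family genes, 15 reached 1 TPM in both libraries, led by the endocytic receptor gene Lrp1 with 62.1 TPM in replicate 1 and 52.8 in replicate 2. Lrp8 came next by mean, close to Ldlrad3 (31.4 ± 2.72 TPM), and Vldlr was among a group with Lrp12, Lrp3, Lrp11, Lrp10 and Lrp6 between 11.02 and 23.07 TPM. Lrp4, Sorl1, Lrp1b, Ldlrad4 and Lrp5 lay between 1.75 and 8.96 TPM.

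Fyn and Src were the highest of 9 Src family kinase genes. Yes1 followed at 14.4 ± 0.474 TPM, Lck, known from T cells, at 7.00 ± 1.01 TPM, and Lyn at 4.35 ± 0.099 TPM, and the other 4 were under 1 TPM. Dab1 exceeded its relative Dab2, an endocytic adaptor with 6.87 TPM in replicate 1 and 8.63 in replicate 2. Rapgef1 was the second of 6 Rap exchange factors, all above 1 TPM, below Rapgef6 at 29.0 ± 2.40 TPM and above Rapgef5, Rapgef2, Rapgef3 and Rapgef4 at 5.82 to 10.1 TPM.

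Itga3 was one of 8 among 18 integrin alpha genes that reached 1 TPM. Itga6, a laminin receptor subunit, had 27.4 ± 1.07 TPM and Itgav 20.2 ± 0.156 TPM, so both were far above Itga3. Itga5, Itga1, Itga2b, Itga4 and Itga8 lay between 1.51 and 5.82 TPM. For Itga3 the pathway gene was therefore not the most abundant integrin subunit of the tissue.

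**Figure D5:**
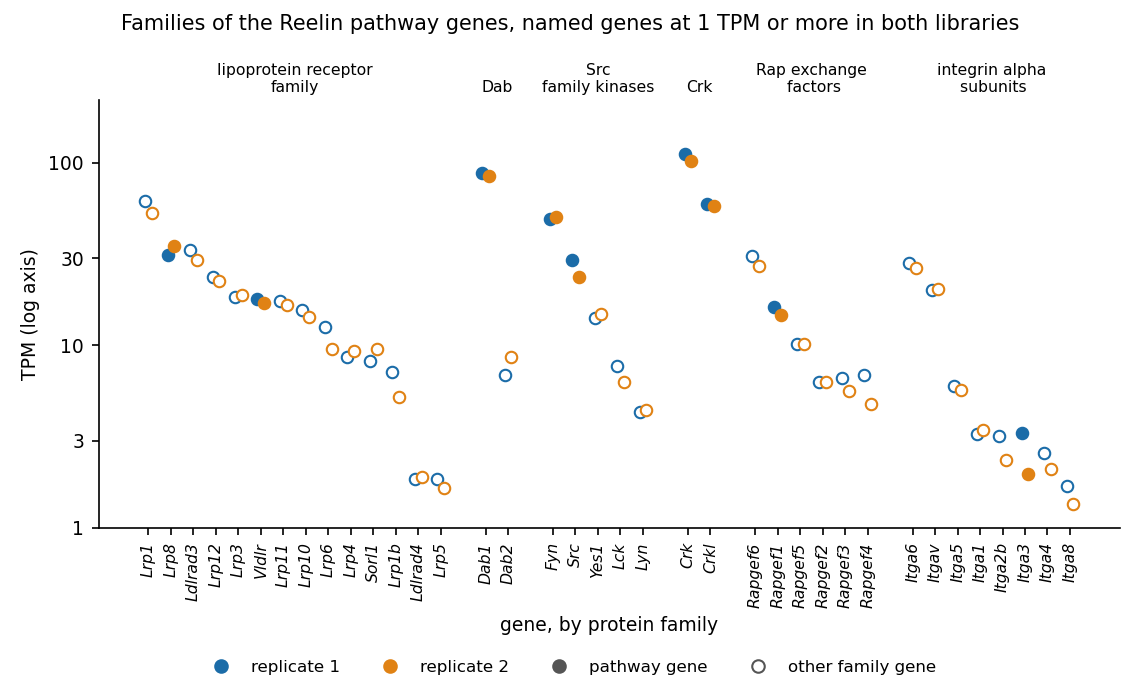
Level in TPM (log axis) of the named family genes by protein family, with replicate 1 and replicate 2 as points, filled for pathway genes and open for their relatives. Fyn, Src, Dab1 and Crk lead their families, while Lrp8 is second to Lrp1 and Itga3 lies sixth of 8 integrin alpha genes.

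Of 91 further genes linked to the pathway, 85 reached 1 TPM in both libraries and 73 reached 10 TPM. The median was 45.7 ± 2.01 TPM. Among 7 proteases that cut Reelin, 4 reached 1 TPM. Plat, which encodes tissue plasminogen activator, had 27.9 TPM in replicate 1 and 26.2 in replicate 2, Adamts4 5.80 and 5.99 TPM and Adamts3 5.20 and 5.96 TPM. No read was assigned to the meprin gene Mep1b, a result compatible with levels under 0.0617 TPM in replicate 1 and 0.0566 in replicate 2 (counting error only, from 3 counts).

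Among 12 other ligands and chaperones of the receptors, 10 reached 1 TPM. The sorting nexin gene Snx17 led with 122 TPM in replicate 1 and 113 in replicate 2, followed by Apoe with 105 and 96.6 TPM and the receptor chaperone gene Lrpap1 with 88.2 and 91.2 TPM. F2, the prothrombin gene, was lowest at 0.360 and 0.090 TPM. All 10 genes of Dab1 turnover reached 1 TPM, from the elongin gene Elob at 960 ± 41.4 TPM, with Eloc and Rnf7 next at 283 ± 8.0 and 197 ± 5.27 TPM, to Socs7 at 6.78 ± 0.608 TPM.

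All 12 genes of the phosphoinositide kinase branch reached 1 TPM, led by Gsk3b at 117 ± 4.11 TPM, Pik3r2 at 70.2 ± 1.34 TPM and Akt2 at 65.4 ± 5.23 TPM, with Pik3cb lowest at 3.47 ± 0.170 TPM. Of 10 genes of the Cdk5, tau and Lis1 branch, which acts on microtubules, 9 reached 1 TPM. Map1b, a microtubule-associated protein gene, had 494 ± 12.5 TPM, Pafah1b3 434 ± 13.7 TPM and Mapt, the tau gene, 241 ± 25.5 TPM. The Cdk5 activator gene Cdk5r2 was lowest, at 0.630 TPM in replicate 1 and 1.05 in replicate 2.

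All 12 genes of the Rap1, cadherin and integrin branch reached 1 TPM, led by Ctnnb1, Cdh2 and Rap1b at 450 ± 15.9, 170 ± 13.1 and 134 ± 7.07 TPM, with Itga5 lowest. All 11 genes of the cofilin and actin branch exceeded 10 TPM, led by Cfl1, the cofilin gene, at 2349 ± 8.22 TPM, Cdc42 at 561 ± 16.2 TPM and Rhoa at 267 ± 3.14 TPM, with Limk1 lowest at 11.6 ± 0.346 TPM. Among 7 genes of Golgi and polarity control the kinase gene Stk25 led at 192 ± 16.8 TPM, with Cab39 and Strada at 37.9 ± 1.42 and 27.7 ± 0.544 TPM and Stk26 lowest at 1.11 ± 0.085 TPM. All 10 other binding partners of Dab1 and the receptors exceeded 10 TPM, led by Aplp1 at 256 ± 17.2 TPM, Apbb1 at 162 ± 10.4 TPM and App at 136 ± 0.594 TPM, with Dlg4 lowest at 21.7 ± 3.24 TPM.

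Besides Mep1b, F2 and Cdk5r2, the genes under 1 TPM in at least 1 library included Adamts2 and Mep1a, which were named after their values were seen. Adamts2 had 0.810 TPM in replicate 1 and 0.530 in replicate 2. Mep1a had 0.020 and 0.040 TPM.

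Between the libraries, 8 of 10 pathway genes had higher TPM in replicate 1, where 71.9% of 17297 genes did. Their median log2 ratio of TPM + 1 (replicate 1 over replicate 2) was 0.10 and that of all genes 0.097. With counts scaled by TMM (trimmed mean of M-values, edgeR) the members' median was 0.013, that of all genes 0.0014, and 6 of 10 were higher in replicate 1. Deposited bounds lay apart with replicate 1 higher for Crk and Src, 2 of 10 genes, against 19.9% of genes. They lay apart with replicate 2 higher for Lrp8 alone, against 3.12% of genes, or 3 of 10 in either direction against 23.0%.

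Markers of Cajal-Retzius neurons, the main source of Reln in the early cortex, had higher TPM in replicate 1 for 8 of 8 genes. Of all 17297 genes, 71.9% did. The markers summed to 117 TPM in replicate 1 and 88.2 in replicate 2. Their median log2 ratio by TPM was 0.34, against 0.097 for all genes, and TMM ratios were not computed for them. Deposited bounds lay apart with replicate 1 higher for 5 of 8 markers, against 19.9% of genes. None of the markers was at 0, with Calb2 at 50.5 and 40.6 TPM, Lhx5 at 13.8 and 8.12 TPM and the defining factor Trp73 at 4.97 and 4.18 TPM. The log2 ratio of Reln was 0.15 by TPM and 0.034 by TMM, and the part of these cells in it was not tested.

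Overlapping genes were a source of doubt, since no source used here says if reads were counted by strand. Counts assigned to those genes cannot bound it, because they leave out reads assigned to the pathway gene instead. The largest count in a gene that overlaps a pathway gene was 97 in replicate 1 and 60 in replicate 2, for the antisense gene Lrp8os2, beside 3585 and 4194 counts of Lrp8. The only near copy was a Rapgef1 pseudogene, Gm9823, with no count in either library.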

How the data were processed

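Total RNA from forebrain was measured in 2 libraries, which the labels place in 1 group. The deposited gene and transcript tables were made by the authors on mm10 with GENCODE M4, per the file headers and the deposited metadata, and have columns in the style of RSEM. The sources used here give no aligner, quantifier version, read length or strand setting. Expected counts, as deposited, are read numbers the authors estimated for each gene or transcript, with shared reads divided. The deposited TPM values are the authors' relative abundances, normalised by effective length, which equals length minus 99 bases, and the deposited posterior mean TPM served as an alternative. The deposited percent column gives each transcript's share of its gene's TPM. The level of the authors' deposited TPM bounds is not stated, so they served only to see whether libraries overlapped.

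Identifiers without version were matched to GENCODE M21 on GRCm38 (42462 of 43346 mouse genes), which gave symbols, transcript classes, coordinates and sequences. Exon inclusion is the summed share of transcripts that hold an exon over that of all transcripts of the gene spanning it. The background used 8174 genes whose transcripts all kept their length in M21. Ratios between libraries used genes averaging 10 or more expected counts. The arithmetic of exon inclusion was checked on made transcripts with known shares, and TMM scaling on simulated counts. Neither check covered the estimation of transcript shares from reads. Expected counts were scaled in R 4.3.3 by TMM (edgeR 4.0.16) and by the size factors of DESeq2 1.42.0. Only the estimation of the size factors used counts rounded to whole numbers. Python 3.11.15 with numpy 2.4.6 and pandas 2.3.3 did the rest. Near copies were sought with BLAST 2.17.0 at 95% identity over 80% of the length and exons aligned with Biopython 1.88.

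The members and lists were chosen with earlier results of these data known. Named were all members, in each list of further pathway genes the 3 highest and the lowest, family genes at 1 TPM or more, each member's leading transcript and others with at least 10% in a library, and exons with 5 to 95% inclusion in both. Some genes that the rule covers are not reported here. Alternatives were other thresholds, pseudocounts, units, scalings and estimates, and leaving out each library. Counting protein-coding transcripts only was chosen after seeing the data for levels and differences.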

Additional observations from a re-analysis of the deposited data

How the results depend on the processing

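Of 62 recomputed values, 52 kept their direction and stayed within the spread between libraries or within 1.5 times a count, and none changed sign. Leaving out 1 library could not move a difference or transcript share, since either of 2 values lies within their SD of the mean. Counting protein-coding transcripts could not move Crk minus Crkl, and dropping the count filter could not move the members' median ratio. These values are among the 52, so that tally is not a measure of stability. With protein-coding transcripts alone, a choice made after seeing the data for levels and differences, the members' median TPM was 24.5, the Reln minus Dab1 difference -2.49 and the count of intermediate exons 15, which follows from fewer transcripts being counted. In counts with no length normalisation, Lrp8 minus Vldlr was 1.35 and Reln minus Dab1 was -0.80 on the log2 scale. By counts the leading transcript's share was 30.8% for Dab1, 87.8% for Lrp8 and 7.21% for Reln, and by posterior mean TPM it was 43.8% for Reln. The cause of the last was not tested. Leaving out 1 library gave a median TPM of 29.97 to 30.3. Without a library the exon count was 26 to 29. The Lrp8 minus Vldlr difference was then 0.76 to 0.99, Reln minus Dab1 -1.71 to -1.61, Fyn minus Src 0.72 to 1.05 and Crk minus Crkl 0.79 to 0.91. No paired analysis was possible because there is only 1 group. Depth limits Itga3 and the division of counts between transcripts that share most of their bases, and 2 libraries limit every error given.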
